A study of Mus musculus with 8 samples.

Results

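ADAMTS proteases are secreted zinc metalloproteinases that carry thrombospondin repeats and cut proteins of the extracellular matrix. The genes described here are the 10 listed members Adamts1, Adamts2, Adamts3, Adamts4, Adamts5, Adamts9, Adamts10, Adamts14, Adamts15 and Adamts17, out of 34614 protein-coding and long noncoding genes placed on the mouse genome. Reduced representation bisulfite sequencing was used to measure CpG methylation. It reads bisulfite-treated ends of CpG-rich restriction fragments, here of brain tissue labelled dDG DGC from male C57 BL/6 mice. The cocaine group held 4 mice with a label of cocaine self-administration, and the saline group held 4 mice of the same experiment labelled saline, with 1 library per mouse. Age, dose and schedule were not stated in the sources used. A gene's cytosines were all CpG cytosines with at least 10 reads in each of the 8 libraries that lay inside its span or within 5 kb of it (mm10). This gave 1164 of the 2301 cytosines listed there in any library, or 50.6%. A level is the percentage of reads methylated, averaged over the cytosines of a region with equal weight, and a difference is the mean of the cocaine mice minus the mean of the saline mice in percentage points.

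The libraries listed 1844706 to 2236384 cytosines each, with a median coverage of 34 to 66 reads, and shared 1510385. Their mean level over the shared cytosines lay between 36.5% and 38.2% in the cocaine mice and between 37.9% and 38.3% in the saline mice. The library of saline 1 stood apart: where 30 to 40 reads covered a cytosine of 20% to 80% pooled level, values of exactly 0% or 100% made up 0.854% to 2.87% in the cocaine libraries, 14.3% in saline 1 and 0.368% to 1.41% in the other saline libraries. For the main values that rest on it, the value without it is given as well, though not for every value. The tissue may hold a mixture of cells, so that another mix of cells and another level within cells cannot be told apart. End levels of cell type markers did not check the labelled cell type, since every marker type with covered ends had an end under 5%. The ends of granule cell markers ranged from 0.0547% to 91.9% in the cocaine mice and those of pyramidal neuron markers from 0.0649% to 13.95%. The corresponding ranges were 0.172% to 96.4% and 0.0799% to 13.5% in the saline mice. The high granule cell value was 1 end of Dsp, on 8 cytosines, and the next highest granule cell end, in C1ql2, averaged 6.23% in the cocaine mice. The highest ends of the other types averaged 7.04% (interneuron), 45.8% (astrocyte), 64.1% (oligodendrocyte) and 71.1% (endothelial) in the cocaine mice.

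Members of the family differ in what they cut. Adamts1, Adamts4, Adamts5, Adamts9 and Adamts15 cleave proteoglycans such as aggrecan, versican and brevican, which in brain build the matrix around neurons and the perineuronal nets. Adamts2, Adamts3 and Adamts14 remove the amino-terminal propeptide of fibrillar procollagens, and Adamts3 also cuts reelin, a signalling protein of the cortex and hippocampus, and processes the lymphatic growth factor VEGF-C. Adamts10 and Adamts17 are linked to fibrillin microfibrils. In most mammalian genes a CpG-rich promoter is unmethylated while the gene body is methylated, and reduced representation libraries sample both.

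The sequence before the transcription start was at hand for 6 members, Adamts1, Adamts2, Adamts3, Adamts9, Adamts14 and Adamts17. These sequences come from RefSeq (GRCm38.p6, whose primary chromosomes have the mm10 coordinates). The 4 best sampled of them are shown, to place the measured CpGs. The windows of Adamts3 and Adamts14, with 9 of 35 and 2 of 35 CpGs measured, are not. Each is the 250 bases before the start, 5′ to 3′ on the gene's strand, and capitals mark the CpGs measured in all 8 mice. Adamts1 is at chr16:85803114-85803363 on the minus strand, Adamts2 at chr11:50601835-50602084 on the plus strand, Adamts9 at chr6:92943535-92943784 on the minus strand and Adamts17 at chr7:66839485-66839734 on the plus strand.
Adamts1: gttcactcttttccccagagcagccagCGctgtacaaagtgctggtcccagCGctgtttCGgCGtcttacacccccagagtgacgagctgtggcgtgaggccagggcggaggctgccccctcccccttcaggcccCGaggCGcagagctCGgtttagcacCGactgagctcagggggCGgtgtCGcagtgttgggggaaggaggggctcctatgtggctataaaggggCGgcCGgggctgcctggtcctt
Adamts2: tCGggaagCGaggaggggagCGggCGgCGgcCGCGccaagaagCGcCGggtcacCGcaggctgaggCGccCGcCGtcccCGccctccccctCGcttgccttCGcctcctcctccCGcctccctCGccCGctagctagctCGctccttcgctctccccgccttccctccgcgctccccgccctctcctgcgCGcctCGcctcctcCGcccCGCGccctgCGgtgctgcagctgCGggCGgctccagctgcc
Adamts9: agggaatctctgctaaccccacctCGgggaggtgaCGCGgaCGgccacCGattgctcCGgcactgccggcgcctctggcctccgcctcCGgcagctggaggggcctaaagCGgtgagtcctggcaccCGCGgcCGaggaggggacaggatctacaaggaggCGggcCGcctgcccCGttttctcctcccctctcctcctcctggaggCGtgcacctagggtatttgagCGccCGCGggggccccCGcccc
Adamts17: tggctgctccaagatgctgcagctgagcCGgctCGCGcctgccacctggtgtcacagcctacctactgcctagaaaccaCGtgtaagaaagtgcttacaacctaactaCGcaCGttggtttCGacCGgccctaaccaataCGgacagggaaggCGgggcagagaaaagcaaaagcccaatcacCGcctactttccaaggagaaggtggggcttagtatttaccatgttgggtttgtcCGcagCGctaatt

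The promoter of Adamts2 had the most measured CpGs, 28 of 34. Adamts9 had 19 of 22 CpGs measured, Adamts1 had 12 of 15 and Adamts17 had 13 of 13. The 6 member promoters held a median of 28 CpGs in 250 bases, with a range of 13 to 35, against a median of 6 over 32851 promoters. The GC box GGGCGG, searched on both strands, occurred in 5 of the 6 (all but Adamts17) and in 32.7% of all promoters. The E-box CACGTG occurred in Adamts17 alone of the 6 and in 6.02% of all promoters. The cAMP response element TGACGTCA and the AP-1 motif TGACTCA, both also searched on both strands, occurred in 0 of the 6, against 1.55% and 4.46% of all promoters. These matches describe the letters in this window and no more.

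Methylation in the printed windows was close to 0 in nearly every mouse. In the Adamts1 window the level was 0%, 0.450%, 0% and 2.45% in cocaine 1 to 4, against 0%, 0%, 0% and 0.198% in saline 1 to 4. The Adamts2 window had 0%, 0.728%, 0.225% and 0% in the cocaine mice, against 8.54%, 0.173%, 0.905% and 0% in the saline mice. The high value is that of saline 1, and without it the saline mean was 0.359%, against 2.40% with it. A value of 0% allows up to 1.09% in the Adamts1 window and up to 0.202% in the Adamts2 window, at 3 counts of the coverage summed there. A read is counted in that sum at each CpG it covers, so these limits are too tight. In the Adamts9 window the cocaine mice averaged 0.205% ± 0.336 and the saline mice 0.270% ± 0.371 (SD, n = 4 each), and in the Adamts17 window the cocaine mice averaged 0.0429% ± 0.0497 and the saline mice 0.0561% ± 0.0433. The groups overlapped in all 4 windows.

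Gene ends were windows of 1 kb to either side of each end of a gene's span with at least 5 shared cytosines, and each of the 10 members had 1 such end. For the 6 members with a promoter sequence it was the end that holds the transcription start. The strands of Adamts4, Adamts5, Adamts10 and Adamts15 were not in the tables used. Member ends held 12 to 120 cytosines and a summed coverage of 525 to 9175 counts per mouse. A read is counted there at each CpG it covers. The pooled level was under 5% at 9 of the 10, against 64.2% of the 20903 covered ends of all genes. The median over the 10 ends was 1.11% in the cocaine mice and 1.06% in the saline mice, against 1.40% and 1.69% over all covered ends.

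Among the proteoglycan-cleaving members, the Adamts1 end read 0%, 0.223%, 0.927% and 1.02% in cocaine 1 to 4, against 0.0246%, 0.174%, 0.151% and 0.0661% in saline 1 to 4. Cocaine 2, 3 and 4 lay above every saline mouse and cocaine 1 below every one, so the groups overlapped. The value of 0% in cocaine 1 stands for 0 of 1786 counts, which would allow up to 0.168% if the counts were independent. Counts from the same read are not, so limits of this kind are too tight, and they cover counting error only. Adamts5 averaged 1.32% ± 0.542 in cocaine and 1.21% ± 0.719 in saline mice, and Adamts15 1.22% ± 1.598 and 0.718% ± 0.8285 (SD, n = 4 each). The Adamts5 difference became -0.169 points without saline 1, and that of Adamts15, 0.503 points, became -0.295 points without cocaine 4. Adamts4, an aggrecanase that oligodendrocytes express strongly, had 2.01%, 0.930%, 6.78% and 4.84% in the cocaine mice, against 5.70%, 3.99%, 5.42% and 5.78% in the saline mice. Its end was the most variable in the cocaine group, with cocaine 3 above all the saline mice and cocaine 1 and 2 below them.

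Adamts9, a protease of versican, had the highest end of the 10. It read 6.44%, 7.52%, 8.43% and 7.80% in cocaine 1 to 4, against 9.54%, 7.99%, 7.26% and 7.75% in saline 1 to 4, on 47 cytosines. It was the only member end with a pooled level from 5% to 95% and so the only one tested. Its difference was -0.586 points, or -0.118 points without saline 1, and -0.240 points with reads summed over cytosines. The quasi-binomial regression of methylated and unmethylated reads, which uses the summed reads, gave an adjusted p of 0.995. Of the 7336 tested ends of all genes, 0.0% were called at an adjusted p under 0.05 with 5 points or more.

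The procollagen-processing members had low ends as well. Adamts2 had 0.0741%, 0.314%, 0.245% and 0.889% in the cocaine mice, against 2.91%, 0.194%, 0.445% and 0.122% in the saline mice. Saline 1 was the highest of the 8, and without it the difference of -0.537 points became 0.127 points. Adamts3 averaged 2.25% ± 0.679 in cocaine and 2.70% ± 2.19 in saline mice, and Adamts14 0.995% ± 1.37 and 1.48% ± 1.36 (SD, n = 4 each). The Adamts14 difference of -0.484 points became 0.185 points without saline 1, which read 3.49%, and that of Adamts3, -0.449 points, became 0.574 points without saline 4. Of the members linked to fibrillin, Adamts10 averaged 0.0722% ± 0.144 and 0.521% ± 0.893 and Adamts17 0.523% ± 0.431 and 0.297% ± 0.306. At the Adamts10 end 5 of the 8 mice, cocaine 1, 2 and 4 and saline 3 and 4, had 0 methylated counts. Taken as independent, the counts would allow up to 0.0941% to 0.122%. The two-sided exact permutation p values of the 10 ends lay between 0.2 for Adamts1 and 0.857 for Adamts5.

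**Figure D1:**
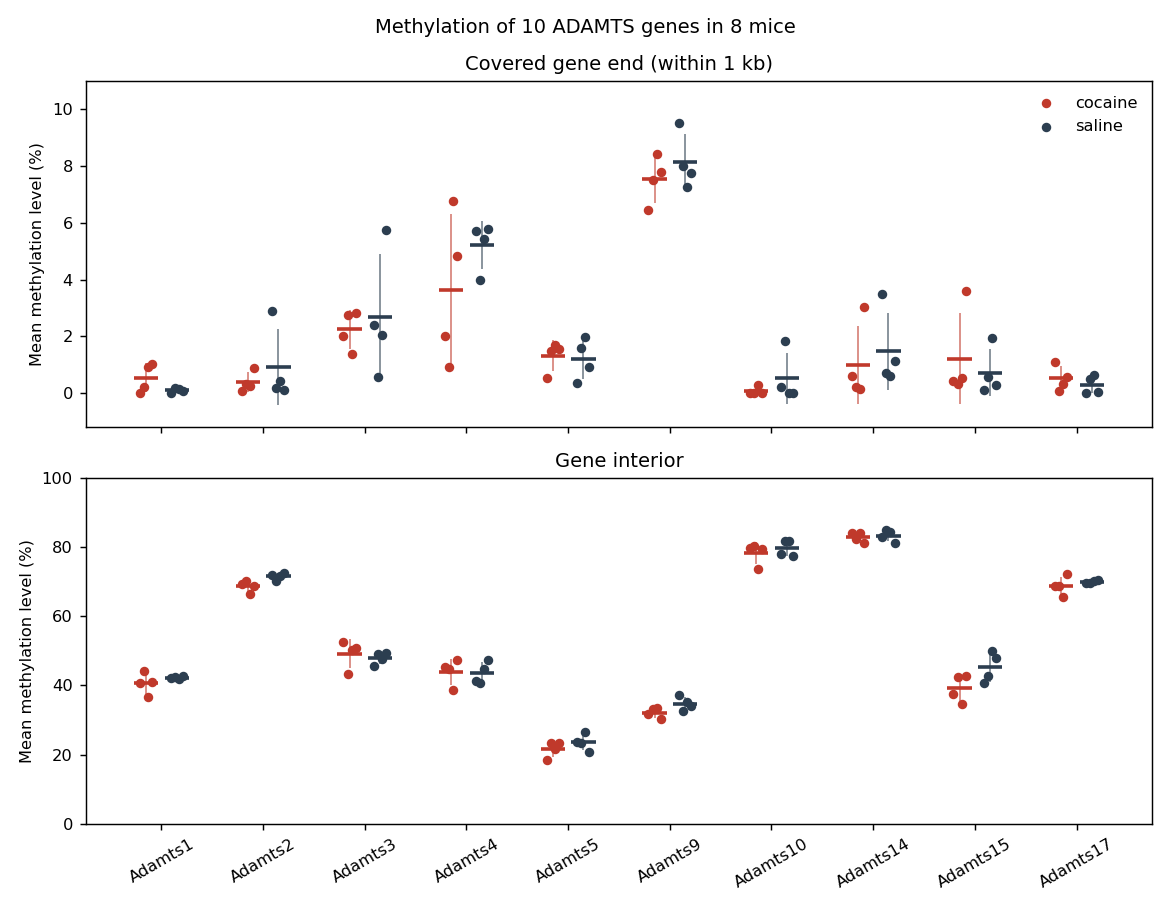
Mean methylation level (y axis, percent) of the covered end (top) and the interior (bottom) of the 10 ADAMTS genes (x axis), with 1 point per mouse, cocaine left of saline, a bar for the mean and an error bar of 1 SD. The ends lie under 10% and the interiors between 18.5% and 84.9%, and only the Adamts2 interior separates the groups.

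Interiors, the parts of a gene more than 1 kb inside its ends, spread over a wide range. Averaged over the 8 mice, Adamts14 was the highest at 83.1% ± 1.45, followed by Adamts10 at 78.9% ± 2.62, Adamts2 at 70.1% ± 1.95, Adamts17 at 69.4% ± 1.85 and Adamts3 at 48.5% ± 2.99. Adamts4 followed at 43.7% ± 3.22, Adamts15 at 42.3% ± 5.003, Adamts1 at 41.4% ± 2.22, Adamts9 at 33.5% ± 2.10 and Adamts5 at 22.6% ± 2.36 (SD, n = 8 each). The neighbours Adamts2 and Adamts17, Adamts4 and Adamts15, and Adamts15 and Adamts1 differed by less than the larger of their spreads. The interiors rest on 8 cytosines in Adamts5 and 10 in Adamts15, against 175 in Adamts2 and 177 in Adamts17, and which sequence they sample differs between genes. The median of the 10 interiors was 46.6% in the cocaine mice and 46.7% in the saline mice, against 67.5% and 68.9% over the interiors of all genes.

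Cocaine mice had the lower mean in 8 of the 10 interiors, against 71.4% of the 14641 tested interiors of all genes, so the members did not stand out by their direction. None of the 10 was called, as in 0.0% of all tested interiors at an adjusted p under 0.05 with 5 points or more. At an unadjusted p under 0.05 the regression held 1 of the 10, Adamts1, against 6.8% of all. limma on logit levels called 0 interiors of any gene as well.

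Adamts2, which removes the propeptide of procollagen types found in connective tissue, had the only interior whose groups did not overlap, against 4.65% of all tested interiors. Its level was 69.2%, 70.1%, 66.5% and 68.8% in cocaine 1 to 4, against 72.0%, 70.2%, 71.6% and 72.4% in saline 1 to 4. Every cocaine mouse lay below every saline mouse, with cocaine 2 and saline 2 only narrowly apart. The means were 68.6% ± 1.54 in cocaine and 71.5% ± 0.933 in saline mice (SD, n = 4 each). The difference of -2.91 points gave a two-sided exact permutation p of 0.0286, the smallest that 4 against 4 mice can give, and an adjusted p of 0.810 in the regression across all interiors. It was -2.77 points without saline 1. At a coverage minimum of 20 the groups overlapped.

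Adamts1, which cuts aggrecan and versican, read 40.7%, 44.2%, 36.6% and 41.0% in cocaine 1 to 4, against 42.0%, 42.3%, 41.8% and 42.8% in saline 1 to 4. Cocaine 2 was above all the saline mice, and cocaine 1, 3 and 4 were below all of them. The two-sided exact permutation p of the difference of -1.597 points was 0.457. The difference was -0.257 points without cocaine 3 and -0.00199 points at a coverage minimum of 20. The regression on summed reads gave an unadjusted p of 0.00468 and an adjusted p of 0.639. With reads summed over the 43 cytosines, the level was 33.4% ± 3.38 in cocaine and 41.2% ± 2.07 in saline mice, a difference of -7.85 points. The share of reads that fell on its 20 cytosines of over 50% pooled level was 36.9% to 39.3% in the cocaine mice and 44.5% to 47.2% in the saline mice, so the same cytosines carried different weights in the summed reads of the groups.

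The other proteoglycan-cleaving members overlapped between groups. Adamts15 had 37.5%, 42.3%, 34.7% and 42.7% in the cocaine mice, against 40.7%, 42.7%, 50.1% and 48.0% in the saline mice. Its difference of -6.06 points was the largest among the interiors and rests on 10 cytosines (two-sided exact permutation p = 0.114, adjusted p = 0.762 in the regression). Only saline 1 lay within the cocaine range. Without it the difference was -7.61 points (unadjusted p = 0.0459, adjusted p = 0.656 in the regression). Adamts9 had 31.9%, 33.2%, 33.3% and 30.2% in the cocaine mice, against 37.1%, 32.6%, 35.3% and 33.9% in the saline mice. Saline 2 lay inside the cocaine range, and the difference of -2.60 points (exact permutation p = 0.0857) was -1.80 points without saline 1. Adamts5 averaged 21.7% ± 2.29 in cocaine and 23.6% ± 2.34 in saline mice and Adamts4 44.0% ± 3.77 and 43.5% ± 3.13 (SD, n = 4 each).

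Of the remaining members, Adamts3 averaged 49.2% ± 4.10 in cocaine and 47.9% ± 1.73 in saline mice and Adamts14 82.8% ± 1.45 and 83.3% ± 1.64. Adamts10 averaged 78.2% ± 3.07 and 79.6% ± 2.28, and Adamts17 68.8% ± 2.63 and 69.9% ± 0.390 (SD, n = 4 each). Adamts3 and Adamts4 were the only interiors with the higher mean in cocaine mice, by 1.22 and 0.493 points. At a coverage minimum of 20 both were lower, by -1.30 and -2.37 points, and without saline 1 Adamts3 differed by 0.459 and Adamts4 by -0.238 points. With reads summed over cytosines Adamts4 was also lower, by -1.46 points. Cocaine 3 was the lowest of the 8 in Adamts10 at 73.7% and in Adamts17 at 65.6%. Cocaine 4 was the highest in Adamts17 at 72.0%, so in that gene the spread within the cocaine group exceeded the difference between groups.

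**Figure D2:**
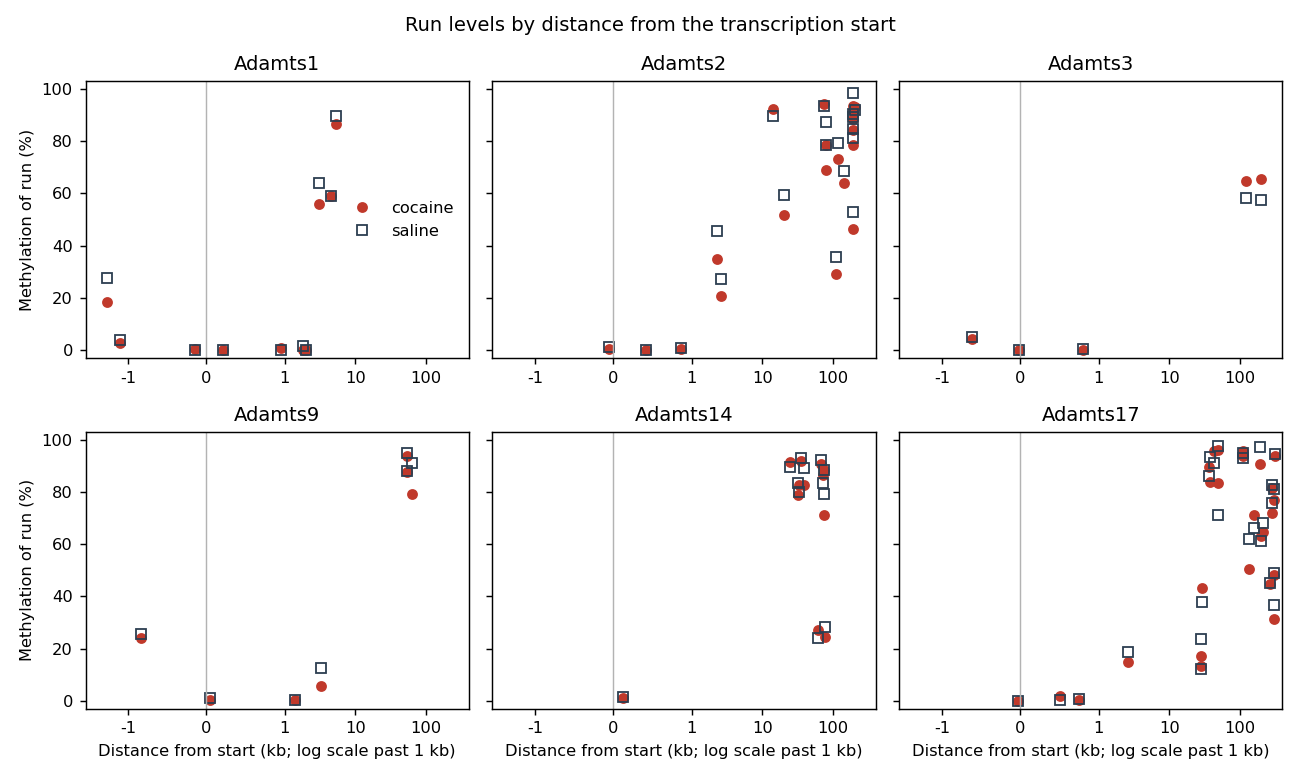
Mean level of each run of CpGs (y axis, percent) against its distance from the transcription start (x axis, kb, linear to 1 kb and logarithmic beyond) in the 6 ADAMTS genes whose start is known, with filled circles for the cocaine mean and open squares for the saline mean. Levels are near 0 from the start to 1 kb inside and vary widely from run to run beyond 2 kb.

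Within the 6 members of known start, levels were near 0 around that start and higher beyond 2 kb inside. The distance classes do not rest on the same genes. Within 500 bp of the start they hold 6 members, at 2 to 5 kb inside 4, at 5 to 20 kb 3 and beyond 20 kb 5. In the 500 bp before the start, 118 cytosines averaged 0.243% ± 0.339 in cocaine and 0.730% ± 1.20 in saline mice (SD, n = 4 each). In the 250 bp nearest the start, saline 1 read 8.54% in Adamts2 and 7.78% in Adamts14, the latter on 2 cytosines. The other saline mice read 0% to 0.905% and 0% there, and the profile without saline 1 was not computed. In the 500 bp after the start, 150 cytosines averaged 0.423% ± 0.390 in cocaine and 0.642% ± 0.483 in saline mice (SD, n = 4 each). From 1 to 2 kb inside, 24 cytosines were still at 0.464% ± 0.905 in cocaine and 0.525% ± 0.646 in saline mice. From 2 to 5 kb, 41 cytosines averaged 24.5% ± 6.07 and 29.8% ± 1.81. The member genes differed most in that stretch, from 9.26% to 50.9%. From 5 to 20 kb, 24 cytosines averaged 87.5% ± 4.73 in cocaine and 90.3% ± 2.29 in saline mice, and beyond 20 kb 441 cytosines averaged 76.1% ± 0.926 and 77.0% ± 0.758. The unmethylated stretch thus reached farther into these genes than 1 kb from the start, on the cytosines that 2 of the members had there.

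Runs of CpGs were stretches of at least 3 shared CpGs with gaps of at most 100 bp, and the members held 97 of the 125876 in the series. A run was tested where its pooled level lay from 5% to 95%, which held for 67 of the 97. Another 27 lay under 5%, against 21.8% of all runs, and 19 of these were among the 21 runs near gene ends. The remaining 3 lay over 95%, against 4.73% of all runs. None of the 67 was called, which took 10 points or more and an adjusted p under 0.05, as in 0.0% of the 92484 tested runs of all genes, and the smallest adjusted p of a member was 0.876. limma on logit levels called 0 as well. The p values measure the spread between these 8 mice.

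At an unadjusted p under 0.05 the regression held 6 of the 67 member runs, or 8.96%, against 5.65% of all tested runs, and limma held 4. Without saline 1 the count was 7, and 3 of the 6 kept an unadjusted p under 0.05, the Adamts9 run and both lower Adamts17 runs. Of the 67, 4 were lower in the cocaine mice at that p, against 4.57% of all tested runs, and 2 were higher, against 1.08%. The groups did not overlap in 4 tested member runs, or 5.97%, against 3.28% of all. The cocaine mean was the lower one in 42 of the 67, or 62.7%, against 61.4% of all, and the median difference was -1.38 points in the members and -1.05 points over all tested runs. Among protein-coding genes with a tested run, a run at an unadjusted p under 0.05 was present in 20.3% of 14888, and in 4 of the 9 such members, Adamts2, Adamts4, Adamts9 and Adamts17. Adamts17 had 21 tested runs and Adamts2 had 16, so these genes had more runs among which one could pass than a gene with few.

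**Figure D3:**
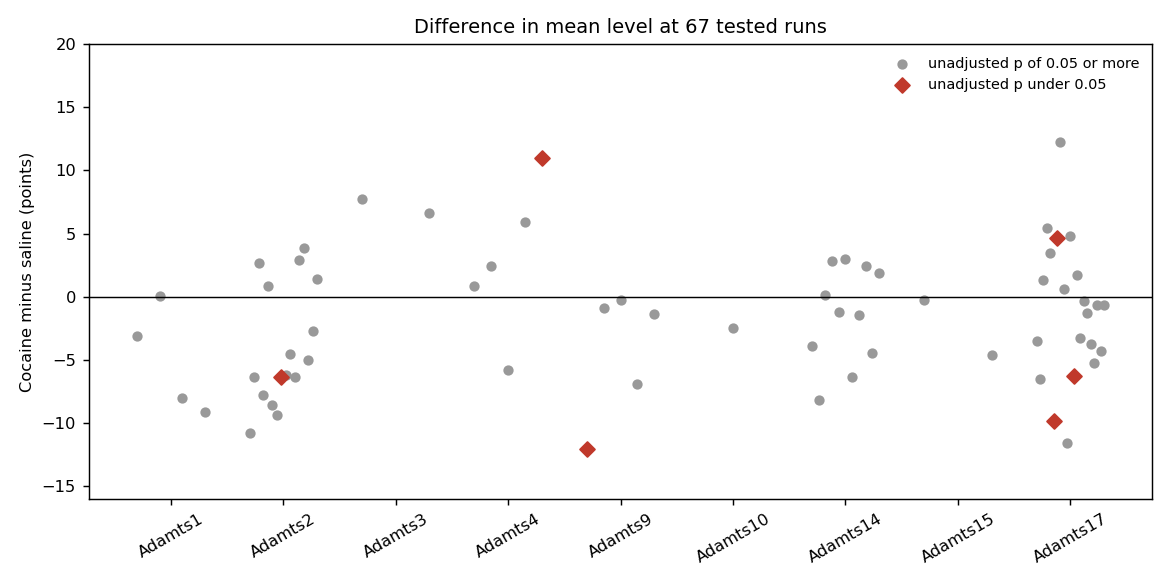
Difference in mean level, cocaine minus saline (y axis, percentage points), at the 67 tested runs of CpGs, grouped by gene (x axis), with 1 point per run and diamonds for the 6 runs at an unadjusted p under 0.05. Points lie between -12.0 and 12.3 points on both sides of 0, and all 5 runs of Adamts9 lie below 0. The highest point, a run of Adamts17, rests on saline 1 and was 1.87 points without it.

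Among the proteoglycan-cleaving members, all 5 tested runs of Adamts9 averaged lower in cocaine mice. The one of smallest p was chr6:92880083-92880177, which lies 63404 bp inside the gene from its start and also inside the noncoding gene Gm15737. Its 4 cytosines averaged 77.1%, 77.9%, 82.8% and 78.8% in cocaine 1 to 4, against 94.6%, 86.7%, 93.3% and 90.2% in saline 1 to 4. Every cocaine mouse lay below every saline mouse, and 3 of the 4 cytosines averaged lower in cocaine mice, on 12 to 38 reads each. The difference was -12.0 points (unadjusted p = 0.00868, adjusted p = 0.876), and it was -10.9 points without saline 1. The two-sided exact permutation p was 0.0286. The other 4 tested runs of Adamts9 differed by -6.92 to -0.278 points, and the tested run nearest the start inside the gene, chr6:92940186-92940305, averaged 5.80% ± 2.50 in cocaine and 12.7% ± 7.91 in saline mice (SD, n = 4 each). There the highest value, 23.0%, was that of saline 1, and without it the difference of -6.92 points was -3.50 points.

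Adamts4 averaged higher in cocaine mice at 4 of its 5 tested runs, and at 3 of them without saline 1. At chr1:171256997-171257096 its 6 cytosines averaged 81.5%, 85.6%, 68.8% and 78.6% in the cocaine mice, against 65.0%, 73.8%, 65.9% and 65.9% in the saline mice. Only cocaine 3 lay within the saline range, and 5 of the 6 cytosines averaged higher in cocaine mice, on 15 to 35 reads each. The difference was 10.95 points (unadjusted p = 0.0471, adjusted p = 0.876), the exact permutation p was 0.0571, and without saline 1 the difference was 10.1 points. The neighbouring run, chr1:171256666-171256811, averaged 83.4% ± 6.56 in cocaine and 77.4% ± 11.98 in saline mice (SD, n = 4 each), and its difference of 5.92 points became -0.0658 points without saline 1. The gene's run of most cytosines, chr1:171252467-171252856, lies elsewhere in it. Its means were 36.5% ± 4.74 in cocaine and 42.3% ± 6.22 in saline mice, a difference of -5.80 points. At a coverage minimum of 20, runs were rebuilt from fewer cytosines. The rebuilt run that overlapped this one most differed by -17.4 points (unadjusted p = 0.00234, adjusted p = 0.901 in the regression). The gene's runs thus did not share a direction. Adamts1 averaged lower in cocaine mice at 3 of 4 tested runs, and at 4 of 4 without saline 1. Among the 3 was chr16:85799990-85800134, with 55.8% ± 4.24 in cocaine and 63.9% ± 4.74 in saline mice (exact permutation p = 0.0857). Only saline 1 lay within the cocaine range there. Without it the difference of -8.05 points was -10.0 points (unadjusted p = 0.0455, adjusted p = 0.811 in the regression). Adamts15 had the lower mean at 2 of 2, with -4.65 and -0.295 points. Adamts5, the other main aggrecanase, had 4 runs, all under 5% and untested, and all 4 lie inside the noncoding gene Gm46558 as well.

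Of the procollagen-processing members, Adamts2 averaged lower in cocaine mice at 11 of its 16 tested runs, and at 12 of them without saline 1. The one of smallest p, chr11:50713808-50714090, lies 111864 bp inside the gene and has 14 cytosines. They averaged 30.8%, 31.4%, 30.8% and 24.1% in the cocaine mice, against 39.6%, 28.7%, 32.5% and 42.0% in the saline mice. Saline 2 lay inside the cocaine range, and 12 of the 14 cytosines averaged lower in cocaine mice. The difference of -6.37 points (unadjusted p = 0.0470, adjusted p = 0.876, two-sided exact permutation p = 0.2) was -5.08 points without saline 1.

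Farther inside Adamts2, a pair of neighbouring runs had groups that did not overlap. At chr11:50796231-50796327 the 7 cytosines averaged 87.8%, 88.2%, 82.0% and 79.0% in the cocaine mice, against 88.2%, 88.3%, 89.6% and 90.9% in the saline mice. Cocaine 2 and saline 1 were nearly equal, and the difference of -4.997 points gave an unadjusted p of 0.133. At chr11:50795323-50795397, whose pooled level is over 95% and which was not tested, the means were 91.5% ± 3.49 in cocaine and 98.3% ± 1.88 in saline mice (SD, n = 4 each). Both runs gave the smallest possible two-sided exact permutation p of 0.0286.

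Adamts3 averaged higher in cocaine mice at both tested runs, by 7.74 and 6.66 points, with SDs of 16.6 and 6.72 in the cocaine mice and 12.5 and 7.88 in the saline mice, so neither exceeded the spread between mice. The larger was 2.13 points without saline 1, 2.36 without cocaine 1 and 15.5 without cocaine 2. Adamts14 had the lower mean at 6 of 11 tested runs, and its differences ran from -8.20 to 2.97 points. The run with its largest difference, chr10:61197859-61197980 at the far end of the gene, read 71.4%, 73.9%, 60.7% and 78.6% in the cocaine mice, against 83.4%, 83.2%, 85.6% and 65.2% in the saline mice. Only saline 4 overlapped the cocaine mice there (exact permutation p = 0.257).

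**Figure D4:**
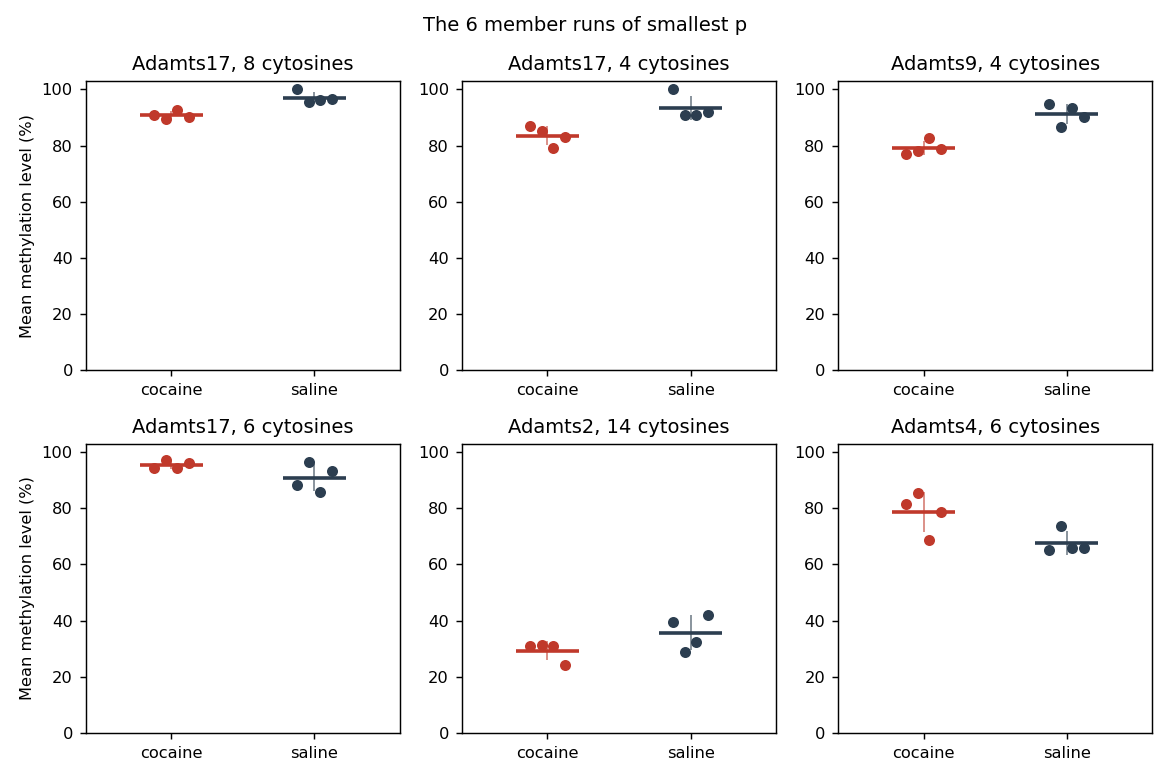
Mean methylation level (y axis, percent) of the 6 member runs at an unadjusted p under 0.05, 1 panel per run, with 1 point per mouse, cocaine left of saline, and a bar for the mean. The groups do not overlap in 3 of the 6 (1 in Adamts9 and 2 in Adamts17), and none of the 6 has an adjusted p under 0.05.

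Of the fibrillin-linked members, Adamts17 held 3 of the 6 runs, among 21 tested. The smallest p of any member run, 0.00677 before and 0.876 after adjustment, was at chr7:67029607-67029696, which lies 189916 bp inside the gene. Its 8 cytosines averaged 90.9%, 89.3%, 92.8% and 90.3% in cocaine 1 to 4, against 100%, 95.6%, 96.1% and 96.6% in saline 1 to 4. Every cocaine mouse lay below every saline mouse, and 7 of the 8 cytosines averaged lower in cocaine mice, on 17 to 48 reads each. The means were 90.8% ± 1.45 and 97.1% ± 1.99 (SD, n = 4 each), a difference of -6.26 points, or -5.29 points without saline 1. All 8 of these cytosines lie on the minus strand within 90 bp, so that they can share reads and are not independent.

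The run at chr7:66877002-66877127, 37329 bp inside Adamts17, showed the same separation. Its 4 cytosines averaged 87.1%, 85.3%, 79.0% and 82.9% in the cocaine mice, against 100%, 90.8%, 91.1% and 91.8% in the saline mice. All 4 cytosines, from both strands, averaged lower in cocaine mice. The difference of -9.84 points (unadjusted p = 0.0085, adjusted p = 0.876) was -7.64 points without saline 1, the library whose level was 100% in both of these runs. With limma on logit levels the unadjusted p was 0.0608 at this run and 0.0289 at the other. The two-sided exact permutation p was 0.0286 at each.

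The remaining Adamts17 run of the 6, chr7:66882274-66882402, pointed the other way. Its 6 cytosines averaged 94.3%, 97.2%, 94.5% and 96.2% in the cocaine mice, against 88.2%, 96.5%, 85.7% and 93.3% in the saline mice. Saline 2 lay within the cocaine range, and 5 of the 6 cytosines averaged higher in cocaine mice. The difference was 4.65 points (unadjusted p = 0.0363, adjusted p = 0.876, exact permutation p = 0.143) and 3.74 points without saline 1. Over its 21 tested runs Adamts17 averaged lower in cocaine mice at 13 and higher at 8, with a median difference of -0.685 points. Adamts10 had 1 tested run, with 88.6% ± 6.48 in cocaine and 91.1% ± 7.09 in saline mice.

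The runs with most cytosines in each of the 9 members with a tested run differed by -5.80 points in Adamts4 to 7.74 points in Adamts3. In Adamts2 the 31 cytosines of chr11:50796444-50797172 averaged 78.4% ± 2.91 in cocaine and 81.2% ± 2.49 in saline mice, and in Adamts14 the 16 cytosines of chr10:61248811-61249018 averaged 91.4% ± 5.98 and 89.5% ± 2.52 (SD, n = 4 each). The 12 cytosines of the Adamts1 run chr16:85797795-85797971 averaged 86.7% ± 6.65 in cocaine and 89.8% ± 2.12 in saline mice, with cocaine 4 the lowest of the 8 at 77.0%. The 12 cytosines of the Adamts17 run chr7:67147919-67148251 averaged 76.7% ± 4.02 and 81.0% ± 2.76. Groups overlapped in all 4 of these runs. Outside the genes, 1 to 5 kb from their ends, the 14 cytosines upstream of Adamts1 averaged 11.1% ± 3.87 in cocaine and 15.4% ± 2.37 in saline mice (SD, n = 4 each), and the 8 cytosines beyond the far end of Adamts14 averaged 31.5% ± 2.24 and 34.7% ± 8.58. The difference of -3.15 points there became 1.01 points without saline 2, which read 47.2%. These flanks overlapped between groups as well.

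Genes that act with the members gave no called run either. Of 9 other ADAMTS proteases, 1 of 45 tested runs had an unadjusted p under 0.05, and of 7 ADAMTS-like and papilin genes, which lack the protease domain, 6 of 78 did. The counts were 1 of 88 for 18 substrates and partners, 6 of 85 for 10 inhibitors, activators and uptake receptors, and 2 of 50 for 11 ADAM proteases, against the 5.65% of all tested runs. The smallest p among these lists was in Adamtsl2, at chr2:27088412-27088513. Its 18 cytosines averaged 16.9%, 14.3%, 16.2% and 13.7% in the cocaine mice, against 23.8%, 23.1%, 27.0% and 28.8% in the saline mice, and the groups did not overlap (unadjusted p = 0.000158, adjusted p = 0.663). A run in Lrp1, an endocytic receptor that takes up several ADAMTS proteases, averaged 78.0% ± 9.95 in cocaine and 90.6% ± 2.23 in saline mice, and a run in Reln, the gene of reelin, averaged 86.6% ± 1.77 and 91.5% ± 1.79 (adjusted p = 0.876 for both). The other runs of the 2 genes of smallest p in each list went both ways. Adamtsl5, Adam19 and Adamts7 differed by 9.43, 8.92 and 8.41 points. Hapln3, with a smaller p than Reln, Adam8, Timp2 and Adamts13 differed by -11.4, -18.3, -6.22 and -6.15 points.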

How the data were processed

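DNA was dissected and extracted from 4 cocaine and 4 saline mice, per the labels. The sample titles gave the groups and replicate numbers. The submitters' processing notes name bcl2fastq, Bismark 22.1 and the build mm10. Whether reads were trimmed or duplicates removed is not stated in these notes or labels. Per the file headers each line holds 1 CpG cytosine with its level and coverage. The level deposited by the authors is a fraction from 0 to 1, multiplied here by 100. The coverage deposited by the authors counts reads, and no count in any file is under 10. The product of level and coverage was a whole number for 100% of values (tolerance 1e-06 times the coverage), which gave methylated read counts. Coverage summed over the cytosines of a library lay between 87964952 and 141775386 counts, with a read counted at each cytosine it covers. The labels name no molecular identifiers, and counting errors thus understate the error.

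Gene spans came from a RefSeq table of assembly GRCm38.p6, which gives no exons, so exons and introns were not placed. Coordinates are counted from 1. Methylated and unmethylated reads of each run, end and interior of all genes were compared between groups by quasi-binomial logistic regression in R 4.3.3. The regression used reads summed over the cytosines of a feature, while the differences given beside its p values weight cytosines equally unless stated. The dispersion was moderated with limma 3.58.1 (squeezeVar, trend on log coverage, floor of 1), and an F test with Benjamini-Hochberg adjustment over all features of a kind followed. Features with a pooled level outside 5% to 95% were not tested. Single member values were compared by permutation (exact, two-sided, 70 assignments of the mice), at 97 runs and 23 ends, interiors and flanks, without adjustment. The regression was tested on simulated reads. limma on logit levels with an offset of 0.5, other coverage, gap, window and level settings, the replicate number as a block and every library left out were tried. The members and all gene lists were chosen with earlier results of these data known. Named runs were those at an unadjusted p under 0.05 and, in each member, those of smallest p and of most cytosines, with up to 2 genes per list. Runs of Adamts2 whose groups did not overlap and a run of Adamts9 near its start were named after their values were seen.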

Additional observations from a re-analysis of the deposited data

Results flagged for a closer look

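A mouse far from the other 3 of its group was found in 13 of 84 groups of 4 values over the members' ends, interiors, flanks and named runs, or 15.5%, where chance marks about 1 in 20 groups of normally spread values. Levels near 0% are not spread that way, and 6 of the 13 were ends or flanks with the other mice under 1%.

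Among the ends and flanks, the Adamts15 end of cocaine 4 read 3.61%, against 0.320% to 0.527% in the other cocaine mice, and the Adamts14 end of cocaine 4 read 3.02%, against 0.150% to 0.591%. The Adamts10 end read 0.289% in cocaine 3, against 0% in the other cocaine mice, and 1.85% in saline 2, against 0% to 0.235% in the other saline mice. The Adamts2 end of saline 1 read 2.91%, against 0.122% to 0.445%, and the lower flank of Adamts4 read 0.272% in saline 2, against 0% in the other saline mice.

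Inside the genes, the Adamts10 interior of cocaine 3 read 73.7%, against 79.2% to 80.4% in the other cocaine mice. The Adamts1 run at chr16:85799990-85800134 read 49.6% in cocaine 1, against 57.0% to 58.4%, and the Adamts2 run at chr11:50713808-50714090 read 24.1% in cocaine 4, against 30.8% to 31.4%. The Adamts4 run at chr1:171256997-171257096 read 73.8% in saline 2, against 65.0% to 65.9% in the other saline mice. The Adamts9 run at chr6:92944261-92944475 read 19.5% in saline 3, against 27.3% to 28.3%, and the Adamts14 run at chr10:61197859-61197980 read 65.2% in saline 4, against 83.2% to 85.6%. The Adamts17 run at chr7:66877002-66877127 read 100% in saline 1, against 90.8% to 91.8%.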

How the results depend on the processing

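Under the regression alternatives for 30 single results (runs, interiors and 1 end), 379 of 396 differences kept their direction, 17 reversed and 0 had an adjusted p under 0.05, with the smallest at 0.264. With 12 end and flank levels and the sums of reads added, 28 of 527 changed sign. For results that reversed, the cause was not tested. The end differences of Adamts2, Adamts3, Adamts5, Adamts14 and Adamts15 and the lower flank of Adamts14 changed sign with 1 mouse left out, and with reads summed the Adamts4 interior did, at -1.46 points, and its lower flank, at -0.0273 points. At a coverage minimum of 20, fewer cytosines were left and runs were rebuilt from them. The differences then became 0.634 points at the Adamts9 run upstream of its start, -2.37 in the Adamts4 interior, -1.30 in the Adamts3 interior and 2.05 in the Adamts10 interior. Leaving out each mouse in turn gave -0.0651 to 4.61 points at the Adamts14 run chr10:61248811-61249018, -5.66 to 6.46 at the Adamts15 run chr9:30910599-30910692, -4.93 to 0.108 at the Adamts1 run chr16:85797795-85797971 and -5.26 to 0.515 at the Adamts10 run. For interiors it gave -2.11 to 0.124 points in Adamts10, -0.637 to 2.29 in Adamts4 and -1.14 to 0.172 in Adamts14. Of 23 ends, interiors and flanks, 1 had groups that did not overlap, 0 at a coverage minimum of 20, and 1 to 4 when 1 mouse was left out, where 4 was reached without cocaine 4.

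The count of member runs at an unadjusted p under 0.05 was 6, 3 of 51 with gaps of at most 50 bp, and 4 to 9 with 1 mouse left out, with 9 without saline 2 and 4 without cocaine 2, cocaine 4 or saline 3. Interiors with the lower mean in cocaine mice numbered 7 to 9. The sample titles do not say whether replicate numbers pair the mice, and the main fits left them out. Same-numbered deviations from the group means correlated at -0.017 to 0.0782 over runs, and those of different numbers at -0.139 to 0.064. Such correlations cannot settle how the mice were paired. With the replicate number as a block, 1 run of any gene was called instead of 0, none of them a member, and 7 member runs had an unadjusted p under 0.05. Summing reads over cytosines moved the Adamts5 interior difference to -4.80 points. Cytosines with as few as 10 reads and the 4 mice per group limit the precision of every difference.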
